A study of Mus musculus with 6 samples.

Results

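The Hedgehog pathway is described here through the accessible chromatin of 9 genes that carry or gate its signal inside the receiving cell: *Gli1*, *Gli2*, *Gli3*, *Ptch1*, *Smo*, *Hhip*, *Sufu*, *Evc* and *Evc2*. An accessible interval belonged to a gene where its strongest summit lay nearest to a TSS of that gene among all protein-coding genes, at most 50 kb away. By this rule, 45 of the 82885 intervals of parent NSPCs and 46 of the 107480 intervals of ΔSRR2–18 NSPCs were assigned, 91 in all. *Ptch1* had 9 intervals in the parent list alone and 1 in the ΔSRR2–18 list alone, whereas *Gli3* had 3 and 10. As shares, 60.0% of the parent intervals of *Ptch1* were in that list alone, next to 52.3% of all parent intervals, and 83.3% of the ΔSRR2–18 intervals of *Gli3*, next to 63.1%. The 95% Wilson intervals of both shares (35.7 to 80.2 and 55.2 to 95.3) include the share of the whole list. The divergent promoters of *Evc* and *Evc2* were listed only in ΔSRR2–18 NSPCs. The promoters of the other 7 genes were listed in both.

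Hedgehog ligands bind the receptor PTCH1, which in the absence of ligand keeps the membrane protein SMO inactive. Once released, SMO acts in the primary cilium and, through SUFU, changes the balance between activator and repressor forms of the GLI transcription factors. *Ptch1*, *Hhip* and *Gli1* are themselves targets of the pathway, and the first pair encodes proteins that bind the ligand and dampen the signal. In the neural tube the pathway specifies ventral progenitors, and GLI3, which acts mainly as a repressor, patterns the dorsal telencephalon.

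ATAC-seq measures open chromatin with a transposase that inserts adapters into accessible DNA. It was performed on 3 cultures of parent NSPCs and 3 cultures of ΔSRR2–18 NSPCs, neural stem and progenitor cells derived from mouse ES cells of a 129S1/Cast F1 Hybrid and grown in N2B27 with EGF and bFGF. All cultures carry the mCherry tag on the 129 allele of *Sox2*, a transcription factor of neural progenitors, and the ΔSRR2–18 cultures also lack the *Sox2* regulatory region SRR2–18, downstream of the gene, on both alleles. Each genotype is 1 clone (Clone 5B and Clone 47D), so clone and genotype cannot be told apart. The labels give 30000 cells and 50 to 60 M reads per culture, yet the lowest background in the lists put the pooled parent libraries at 1.98 times the depth of the ΔSRR2–18 ones. Since the deposited lists pool the 3 cultures of a genotype, the values below are descriptions without a spread between cultures, and no difference could be tested from these lists. In such bulk data, fewer cells with an open site and less opening per cell cannot be told apart. Promoter intervals at all 10 neural progenitor markers looked at, such as *Sox1*, *Nes* and *Pax6*, were listed in both genotypes, whereas of 5 markers of pluripotent cells only *Esrrb* had one, in both, and *Pou5f1* and *Nanog* had none in either. Of the other lists of markers, mesoderm had promoter intervals at 2 of 4 genes in parent and 3 of 4 in ΔSRR2–18 NSPCs, neurons at 3 and 4 of 4, and blood at 0 and 1 of 3. Their part in the results was not tested.

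An interval is called parent-only or deletion-only where it overlaps no interval of the other list, and shared otherwise. The word describes the list, not an absence of reads, since a list ends at a reproducibility threshold. Of the 45 parent intervals, 24 were parent-only (53.3%, 95% Wilson interval 39.1 to 67.1), against 52.3% of all parent intervals. Of the 46 ΔSRR2–18 intervals, 25 were deletion-only (54.3%, 40.2 to 67.8), against 63.1% of all ΔSRR2–18 intervals. The Wilson intervals cover counting error only. As a group, the 9 genes thus had genotype-specific shares near those of their lists. Most genotype-specific intervals were intronic, 18 of 24 and 18 of 25. They lay at a median of 17.5 kb (parent-only) and 18.7 kb (deletion-only) from the TSS, against 2.92 kb for the shared intervals in each list. Over all intervals, which the 50 kb limit does not cap, the medians were 38.4 kb, 48.8 kb and 11.6 kb in each list. The GC content of the genotype-specific intervals around the summit had a median of 51.0% when parent-only and 45.8% when deletion-only. Over all intervals of these classes it was 50.2% and 45.8%. Only 2 parent-only intervals and 1 deletion-only interval overlapped the more permissive optimal list of the other genotype.

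**Figure D1:**
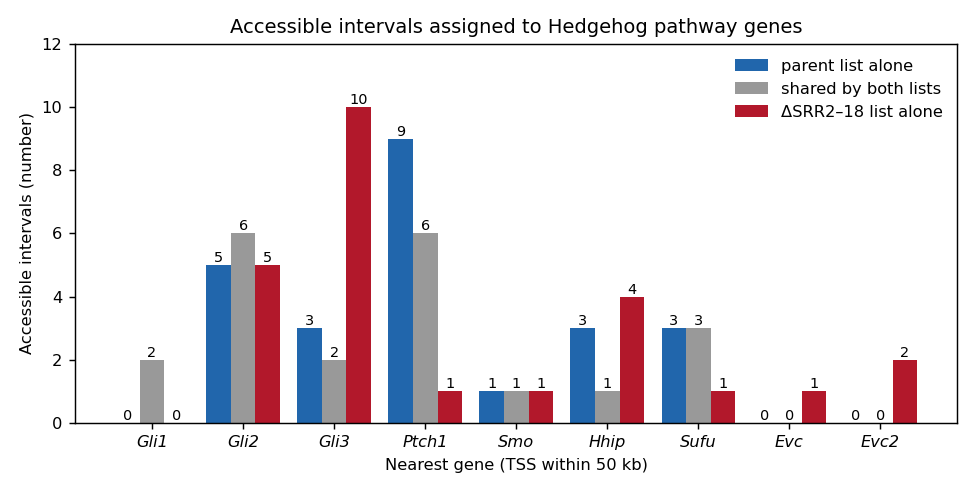
Bars give the number of accessible intervals per gene (vertical axis) in the parent list alone (blue), shared by both lists (grey, counted in the parent list) and in the ΔSRR2–18 list alone (red). *Ptch1* has 9 parent-only intervals and *Gli3* 10 deletion-only intervals, while *Gli1* has shared intervals alone and *Evc* and *Evc2* have deletion-only intervals alone.

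By fold enrichment, the parent-only intervals were mostly weak within their own list. Fold enrichment, the reads at a summit over the local background as the peak caller lists it, had a median of 5.02 among the 24 parent-only intervals, below the 7.93 of all parent-only intervals. By this measure 21 of the 24 ranked in the weaker part of the parent list, past its median, and 2 in its top 25%. Their median rank was the top 83.3% of the list. Parent-only intervals as a whole also ranked past the median, with a median rank in the top 60.9%. By summit reads they were stronger than parent-only intervals as a whole, with a median of 658 against 476 reads and a median rank in the top 51.7% against the top 62.6% of the list. The 25 deletion-only intervals had a median fold enrichment of 8.57, near the 9.58 of all deletion-only intervals, and 7 of them ranked in the top 25% of the ΔSRR2–18 list. Their median rank by fold enrichment was the top 62.0%, against the top 55.3% for all deletion-only intervals. The shares past the median or in the top 25% were not counted over all intervals of either class. Fold enrichments depend on the depth and background of each list and are compared only within it.

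*Ptch1* encodes the Hedgehog receptor that restrains SMO. It lies on the minus strand of chromosome 13 (chr13:63508328-63573598 in mm10, ENSMUSG00000021466.12) and held 15 parent and 7 ΔSRR2–18 intervals. Of these, 9 were parent-only, 1 was deletion-only and 6 were shared. An excess of at least 8 parent-only over deletion-only intervals, the size seen at *Ptch1*, was found at 85 of the 17587 genes with any interval (0.483%). Genes with fewer than 8 intervals cannot reach it, and genes with as many intervals as *Ptch1* were not counted apart. The share thus does not say how rare the excess is among such genes. No gene outside the pathway list had exactly the 3 counts of *Ptch1*, and the nearest in the summed difference of counts were *Osbpl1a* and *Pou3f3*, each 1 away, and *A730071L15Rik*, 2 away.

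The strongest parent-only interval of *Ptch1* lay 32.1 kb upstream, between genes, with a fold enrichment of 21.0, the top 7.48% of the parent list, and 1410 summit reads. The nearest ΔSRR2–18 interval was 23577 bp away. A weaker parent-only interval stood 27.9 kb upstream, with a fold enrichment of 5.04. The remaining 7 parent-only intervals were intronic, 6 of them between 7.9 and 20.1 kb downstream of the TSS and 1 at 34.0 kb. Their summit reads ran from 357 to 2949, and the highest, at 11.8 kb, was in the top 13.2% of the parent list by reads while its fold enrichment was 7.01, since the local background was 420 reads there. No ΔSRR2–18 interval was assigned to *Ptch1* between 1.2 and 36.1 kb downstream of the TSS. The 1 deletion-only interval, 147 bp downstream of a TSS with a fold enrichment of 3.07 and 603 reads, began 91 bp from a parent interval and overlapped the parent optimal list.

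All 6 shared *Ptch1* intervals carried fewer summit reads in ΔSRR2–18 NSPCs once the parent reads were scaled to the ΔSRR2–18 depth. The interval 1.1 kb downstream, 419 bp from a start that only the full annotation lists, had 2066 scaled reads in parent and 545 reads in ΔSRR2–18 NSPCs, a ratio of 0.26 (95% counting interval 0.24 to 0.29). The interval 646 bp upstream of the TSS had 1709.6 and 621 reads, a ratio of 0.36 (0.33 to 0.40). Between the start sites, the counts were 1137 and 501 (0.44, 0.40 to 0.49). At 7.9 kb upstream they were 549 and 160 (0.29, 0.25 to 0.34). That summit was 25 bp upstream of a further *Ptch1* start that only the full annotation lists, so it too marked a promoter. The intervals 2.3 kb upstream (3010.3 and 1926 reads) and 36.0 kb downstream (723 and 399 reads) had ratios of 0.64 and 0.55. For comparison, the ratio over all 40114 overlapping pairs had a median of 0.847, and over the 12852 pairs at promoters a median of 0.722. For the 3 lowest *Ptch1* ratios, 5.19%, 6.16% and 8.87% of all pairs were lower still. By fold enrichment the picture was less even, with 2 of the 6 *Ptch1* pairs ranking higher in the ΔSRR2–18 list, those 2.3 kb upstream and 36.0 kb downstream. Before scaling for the depth ratio of 1.98, their local background was 861 and 105 reads in parent NSPCs. In ΔSRR2–18 NSPCs it was 201 and 26.3 reads. At 646 bp upstream, where the pair ranked lower, the background was 813 and 198 reads. The part of the background in these ranks was not tested.

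The *Ptch1* sequences below are the mm10 reference (RefSeq GRCm38) on its plus strand, which can differ from the alleles of these cells, printed because they hold the GLI letters of the data set or mark the strongest parent-only interval. Capitals mark every match, on either strand, to the GLI motif TGGGTGGTC, its shorter form GGGTGGTC, the SOX motifs ACAATGG and ACAAAGG, the AP-1 motif TGANTCA, the ZIC motif CAGCAGG, the HOX-PBX motif TGATTNAT and the CDX motif TTTATNG. The shorter GLI form lies within the longer one.
Shared interval 646 bp upstream, chr13:63566281-63566481: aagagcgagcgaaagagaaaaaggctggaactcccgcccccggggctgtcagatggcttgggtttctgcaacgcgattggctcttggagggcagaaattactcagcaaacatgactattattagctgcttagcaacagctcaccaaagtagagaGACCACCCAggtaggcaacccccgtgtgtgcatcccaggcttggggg
Shared interval 7.9 kb upstream, centred on its GLI match, chr13:63573369-63573569: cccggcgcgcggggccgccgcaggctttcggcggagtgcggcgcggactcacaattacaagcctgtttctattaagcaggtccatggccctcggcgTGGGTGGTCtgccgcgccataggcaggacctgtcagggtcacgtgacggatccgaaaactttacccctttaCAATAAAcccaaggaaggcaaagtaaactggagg
Shared interval 1.1 kb downstream, chr13:63563296-63563496: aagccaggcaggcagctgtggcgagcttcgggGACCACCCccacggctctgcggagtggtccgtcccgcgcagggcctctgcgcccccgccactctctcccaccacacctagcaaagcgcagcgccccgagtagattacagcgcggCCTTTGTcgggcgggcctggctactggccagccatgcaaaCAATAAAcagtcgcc
Parent-only interval 32.1 kb upstream, chr13:63597693-63597893: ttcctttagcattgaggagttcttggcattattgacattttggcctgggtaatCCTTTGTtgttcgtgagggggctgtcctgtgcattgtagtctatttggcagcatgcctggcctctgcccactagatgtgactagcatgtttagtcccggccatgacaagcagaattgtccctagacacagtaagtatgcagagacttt

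The 9-letter GLI motif, the consensus bound by the GLI factors, occurred in 2 of the 45 parent member intervals and in 2 of the 46 ΔSRR2–18 ones when whole intervals were searched, and both lay at *Ptch1* promoters. It occurred in 0.706% of all parent and 0.526% of all ΔSRR2–18 intervals. In the first sequence it stands as GACCACCCA, 58 bases from the summit, and in the second as TGGGTGGTC, 154 bases from it. Within 100 bp of the summit, the window used below, only the first was counted, in each list. The shorter form was found there in 3 parent intervals, all at *Ptch1*: both shared ones 646 bp upstream and 1.1 kb downstream, and a parent-only one 7.9 kb downstream. It was present in 0.392% of all parent-only and 0.461% of all shared parent windows. The strongest parent-only interval of *Ptch1* held a SOX match 44 bases from its summit and no GLI match within 100 bp.

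*Hhip* encodes a membrane protein that binds and sequesters Hedgehog ligands. On the minus strand of chromosome 8 (chr8:79965851-80058006, ENSMUSG00000064325.4), it had 3 parent-only intervals, 4 deletion-only intervals and 1 shared promoter interval. The promoter interval had 1150.4 scaled reads in parent and 419 reads in ΔSRR2–18 NSPCs, a ratio of 0.36 (0.33 to 0.40), with 5.04% of all promoter pairs lower. Its fold enrichments were 8.42 in the parent list and 10.8 in the ΔSRR2–18 list. Of the parent-only intervals, those 2.0 and 3.6 kb downstream of the TSS (fold enrichments 5.87 and 2.05) each held a SOX match, and the strongest, 17.3 kb downstream with a fold enrichment of 7.91, held AP-1 and ZIC matches instead. The deletion-only intervals included the intronic one 25.2 kb downstream, with a fold enrichment of 23.1, the top 5.56% of the ΔSRR2–18 list, and 898 reads. A second, 32.8 kb downstream, had a fold enrichment of 15.5, and another, 33.4 kb upstream, had 14.3. AP-1 letters occurred in 3 of the 4, next to 50.7% of all deletion-only intervals. The strongest deletion-only interval and the parent-only interval 2.0 kb downstream are printed for these matches, TGACTCA and ACAATGG.
Deletion-only interval 25.2 kb downstream, chr8:80032696-80032896: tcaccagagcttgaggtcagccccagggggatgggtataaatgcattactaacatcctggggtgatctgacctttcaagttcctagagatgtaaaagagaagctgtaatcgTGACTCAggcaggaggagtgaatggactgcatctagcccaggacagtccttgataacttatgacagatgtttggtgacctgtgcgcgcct
Parent-only interval 2.0 kb downstream, chr8:80055878-80056078: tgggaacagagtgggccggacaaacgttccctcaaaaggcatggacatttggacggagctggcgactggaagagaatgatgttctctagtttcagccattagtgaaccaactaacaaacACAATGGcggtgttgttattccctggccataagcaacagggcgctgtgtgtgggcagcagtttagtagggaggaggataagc

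*Smo* encodes the signal transducer that PTCH1 holds in check. On the plus strand of chromosome 6 (chr6:29735503-29761365, ENSMUSG00000001761.7), it had a shared promoter interval, 1 parent-only and 1 deletion-only interval. The promoter interval was the strongest of the 9 genes in the parent list by fold enrichment, at 18.3 in parent and 16.5 in ΔSRR2–18 NSPCs. It had 2807.9 scaled reads and 1856 reads, a ratio of 0.66 (0.63 to 0.70). This was close to the promoter median of 0.722, with 38.1% of promoter pairs lower. The parent-only interval, 17.6 kb upstream in a noncoding part of an exon of *Tspan33*, had a fold enrichment of 19.6 and 1001 reads (507 when scaled). The deletion-only interval, 9.0 kb upstream, had 8.57 and 176 reads and held AP-1 letters.

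*Evc* and *Evc2* encode partner proteins at the base of the cilium that relay the signal of SMO. They stand head to head on chromosome 5, *Evc* on the minus strand (chr5:37289098-37336894, ENSMUSG00000029122.11) and *Evc2* on the plus strand (chr5:37338499-37425055, ENSMUSG00000050248.11), with their nearest start sites 1605 bp apart. No parent interval was assigned to either gene, and the nearest parent interval was 47656 bp away from the *Evc* promoter interval. In ΔSRR2–18 NSPCs, the *Evc* promoter interval had a fold enrichment of 7.60 and 283 reads, and the *Evc2* promoter interval had 11.8 and 441 reads, the top 42.6% of its list by fold enrichment. The remaining interval, 42.3 kb into *Evc2*, was weak (5.61, 115 reads, IDR score 596, where 540 is the lowest listed) and held AP-1 letters. Deletion-only intervals made up 14.0% of all promoter intervals of the ΔSRR2–18 list, and parent-only ones 8.91% of those of the parent list. A promoter interval in the ΔSRR2–18 list with none in the parent list was found at 1433 of 21938 genes (6.53%), and the reverse at 741 (3.38%). The promoter windows hold none of the motifs searched and are printed because these were the only genes of the 9 with promoter intervals in a single list.
Evc promoter, deletion-only, chr5:37336787-37336987: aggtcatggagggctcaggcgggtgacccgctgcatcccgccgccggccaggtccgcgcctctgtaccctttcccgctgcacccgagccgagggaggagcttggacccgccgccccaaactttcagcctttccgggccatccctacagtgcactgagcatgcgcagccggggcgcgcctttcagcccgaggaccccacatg
Evc2 promoter, deletion-only, chr5:37338360-37338560: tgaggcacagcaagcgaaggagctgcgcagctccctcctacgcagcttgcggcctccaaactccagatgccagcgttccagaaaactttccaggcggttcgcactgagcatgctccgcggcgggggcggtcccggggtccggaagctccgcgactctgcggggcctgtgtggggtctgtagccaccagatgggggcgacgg

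*Sufu* encodes the cytoplasmic inhibitor that binds GLI proteins. On the plus strand of chromosome 19 (chr19:46396896-46488804, ENSMUSG00000025231.17), it had the shared intervals whose scaled reads were nearest to equal. Its promoter had 2451.6 scaled reads in parent and 2277 reads in ΔSRR2–18 NSPCs, a ratio of 0.93 (0.88 to 0.98), and was the only promoter of the 9 genes to rank higher in the ΔSRR2–18 list by reads (top 2.26% against top 4.60%). The intronic intervals 25.7 and 47.4 kb downstream had ratios of 1.04 (0.92 to 1.19) and 0.95 (0.88 to 1.03), whose intervals include 1. Equal scaled reads are not the middle of the data, as promoter pairs had a median ratio of 0.722. Of all promoter pairs, 79.3% were lower than that of *Sufu*. Of pairs outside promoters, 52.8% and 47.1% were lower than the 2 intronic ones. Its 3 parent-only intervals and 1 deletion-only interval were weak, with fold enrichments up to 5.65 and of 3.00.

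The 3 *Gli* genes encode the transcription factors at the end of the pathway. *Gli1*, an activator that is transcribed in response to the signal, had only shared intervals. It lies on the minus strand of chromosome 10 (chr10:127329882-127341974, ENSMUSG00000025407.7). The promoter interval had 473 scaled reads in parent and 371 reads in ΔSRR2–18 NSPCs, a ratio of 0.78 (0.70 to 0.88), at fold enrichments of 4.70 and 4.09. An intronic interval 2.9 kb downstream, 903 bp from a second *Gli1* start in the full annotation and so within the promoter distance of it, had more reads, with 1035.0 and 1082 reads, a ratio of 1.05 (0.97 to 1.13), and ranked in the top 20.6% of the parent and the top 13.7% of the ΔSRR2–18 list. The 9-letter GLI motif was not found in these intervals, and its shorter form was found once, in the parent promoter interval.

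*Gli2* encodes the main activator of the first response to the ligand. It lies on the minus strand of chromosome 1 (chr1:118834132-119053619, ENSMUSG00000048402.14) and had the same number of intervals in each list, 11, with 5 parent-only, 5 deletion-only and 6 shared. The same 3 counts occurred at 2 other genes, *Klf9* and *Nid2*. The strongest shared interval lay in an intron 19.6 kb downstream of the TSS, with 2557.4 scaled reads in parent and 1714 reads in ΔSRR2–18 NSPCs, a ratio of 0.67 (0.63 to 0.71). The promoter had 2351.4 and 1473 reads (0.63, 0.59 to 0.66). All 6 shared *Gli2* intervals had ratios below 1 and a lower rank by reads in the ΔSRR2–18 list, the lowest 5.5 kb downstream at 0.35 (0.31 to 0.39). The strongest parent-only interval lay 44.6 kb upstream (fold enrichment 14.2, 1246 reads, 631 when scaled) and overlapped the ΔSRR2–18 optimal list. The strongest deletion-only interval lay 49.5 kb downstream in an intron, with a fold enrichment of 20.2 and 871 reads, just inside the distance limit. The first interval beyond the limit in that list was a deletion-only one of *Gli3* at 50.3 kb (fold enrichment 16.5), and the parent list had a parent-only one of *Gli3* at 50.4 kb (5.92). The *Gli2* interval is printed for its AP-1 letters, TGAATCA, 17 bases from the summit.
Gli2 deletion-only interval 49.5 kb downstream, chr1:119004059-119004259: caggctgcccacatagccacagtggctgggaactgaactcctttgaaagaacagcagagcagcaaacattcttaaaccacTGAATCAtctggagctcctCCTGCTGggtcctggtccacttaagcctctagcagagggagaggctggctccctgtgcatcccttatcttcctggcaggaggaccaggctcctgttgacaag

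*Gli3* encodes the main repressor of the pathway. It lies on the plus strand of chromosome 13 (chr13:15463235-15730026, ENSMUSG00000021318.15) and had 5 parent and 12 ΔSRR2–18 intervals, with 3 parent-only, 10 deletion-only and 2 shared. An excess of at least 7 deletion-only intervals, the size seen here, was found at 400 of 17587 genes (2.27%). As at *Ptch1*, genes with fewer than 7 intervals cannot reach it, and genes with as many intervals as *Gli3* were not counted apart. The strongest deletion-only intervals were upstream, at 18.7 kb (fold enrichment 26.2, the top 1.89% of the ΔSRR2–18 list, 1244 reads) and at 12.1 kb (24.6, the top 3.46%, 507 reads). Both lay in an intron of the noncoding gene *Gm6556*, and the nearest parent intervals were 12933 and 6312 bp away. Further upstream, at 36.5 and 41.7 kb, intervals had fold enrichments of 19.7 and 17.8, the latter next to a weak one at 41.3 kb (4.19). The interval at 36.5 kb ended 42 bp short of a parent-only interval (fold enrichment 9.64, the strongest of the 3), so the lists placed neighbouring intervals there. Downstream, the deletion-only interval at 48.1 kb had a fold enrichment of 10.9, and the others between 1.3 kb upstream and 5.4 kb downstream had fold enrichments from 2.84 to 7.29. AP-1 letters were found in 7 of the 10 deletion-only intervals and in none of the 3 parent-only ones. Over all intervals of these classes the shares were 50.7% and 4.59%, and so few intervals cannot show a difference from them.

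The shared *Gli3* intervals had ratios on opposite sides of 1. The promoter had 2448.6 scaled reads in parent and 1612 reads in ΔSRR2–18 NSPCs, a ratio of 0.66 (0.62 to 0.70). The intronic interval 34.6 kb downstream had 178 scaled reads and 493 reads, a ratio of 2.78 (2.42 to 3.18), the highest among the 21 shared pairs and higher than at 89.2% of all pairs. It ranked in the top 73.8% of the parent list and the top 36.8% of the ΔSRR2–18 list by reads. The strongest deletion-only intervals and the one that holds AP-1 and SOX letters together are printed below. At 12.1 kb upstream the AP-1 match and the HOX-PBX match share the same letters, ATGAATCA, so they are not separate motifs.
Gli3 deletion-only interval 18.7 kb upstream, chr13:15444456-15444656: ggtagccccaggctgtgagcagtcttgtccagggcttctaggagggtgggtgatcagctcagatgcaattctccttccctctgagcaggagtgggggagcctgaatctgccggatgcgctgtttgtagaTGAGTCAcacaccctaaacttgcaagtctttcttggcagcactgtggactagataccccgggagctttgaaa
Gli3 deletion-only interval 12.1 kb upstream, chr13:15451080-15451280: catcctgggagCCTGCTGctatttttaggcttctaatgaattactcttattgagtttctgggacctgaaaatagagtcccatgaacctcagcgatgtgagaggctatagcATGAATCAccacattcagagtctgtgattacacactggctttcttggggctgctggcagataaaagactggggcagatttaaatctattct
Gli3 deletion-only interval 48.1 kb downstream, chr13:15512017-15512217: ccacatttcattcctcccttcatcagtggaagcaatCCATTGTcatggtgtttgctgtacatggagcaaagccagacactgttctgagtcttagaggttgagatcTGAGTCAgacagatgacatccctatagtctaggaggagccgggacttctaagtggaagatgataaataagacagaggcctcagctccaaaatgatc

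**Figure D2:**
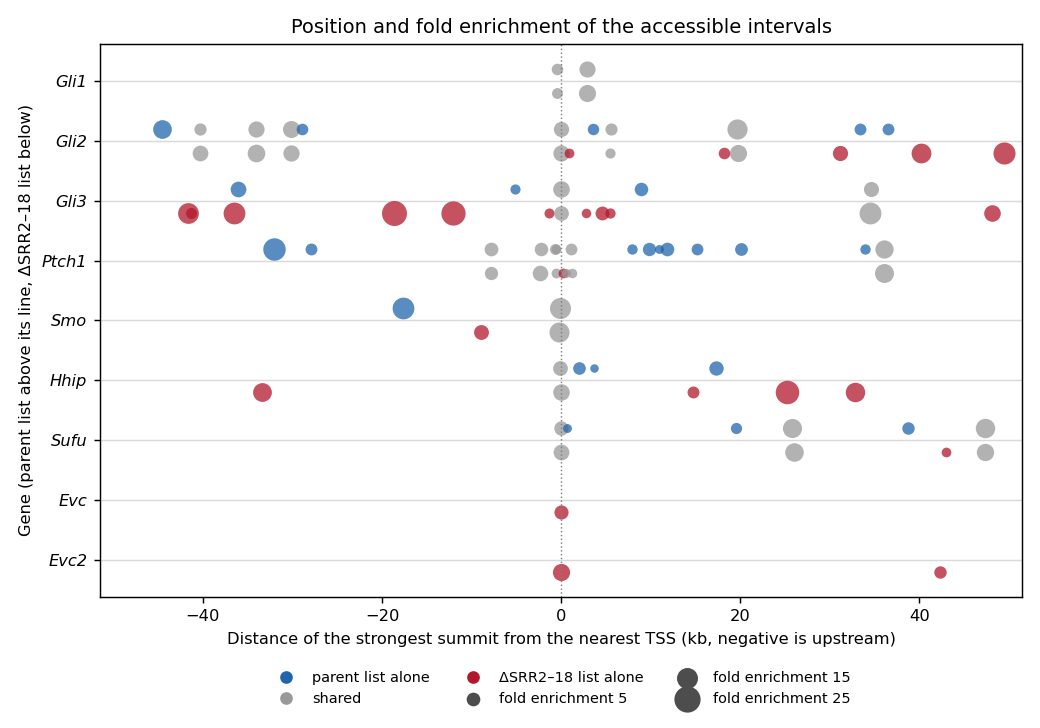
Each circle is an accessible interval, placed by the distance of its strongest summit from the nearest TSS (kb, negative upstream), with the parent list above and the ΔSRR2–18 list below the line of each gene and the circle area growing with fold enrichment. Blue circles (parent-only) run from 7.9 to 20.1 kb downstream of the *Ptch1* TSS, and the large red circles (deletion-only) stand upstream of *Gli3* at 12.1, 18.7 and 36.5 kb.

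Across the 7 genes with shared intervals there were 21 overlapping pairs. After scaling for depth, 18 had fewer reads in ΔSRR2–18 than in parent NSPCs and 3 had more, with a median ratio of 0.658. Over all pairs 38.9% had more reads in ΔSRR2–18 NSPCs and the median was 0.847, so the scaling itself does not centre the pairs on 1. By percentile rank within each list, 5 of the 21 pairs stood higher in the ΔSRR2–18 list by reads, against 47.1% of all pairs. The lists differ in length, so a shift in rank is not a change in reads, and the *Sufu* promoter ranked higher at a ratio of 0.93. All 8 promoter pairs had ratios below 1, as did 10773 of 12852 promoter pairs in all. Ranked by fold enrichment instead, 9 of the 21 stood higher in the ΔSRR2–18 list. The 5 pairs that ranked higher by reads were the intronic interval of *Gli1*, that of *Gli3* and all 3 of *Sufu*.

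**Figure D3:**
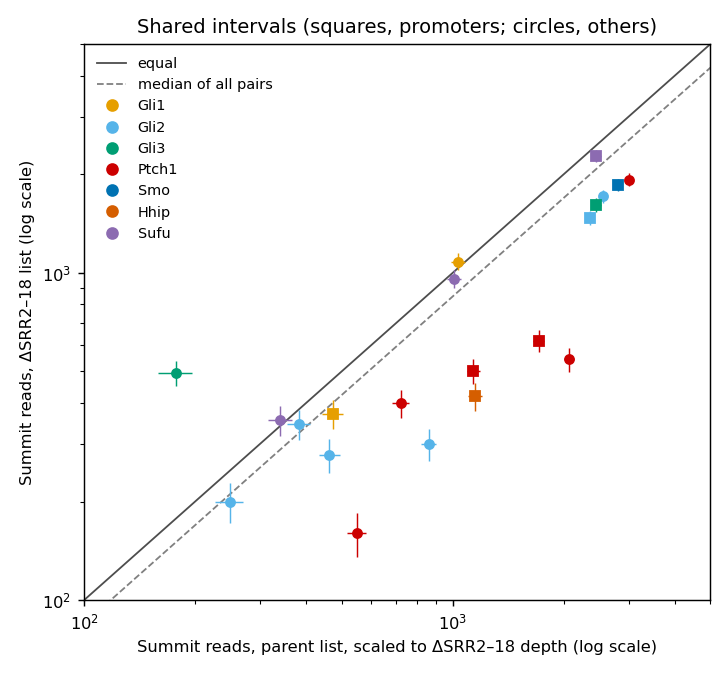
Each point is 1 of the 21 shared intervals, with parent summit reads scaled to the ΔSRR2–18 depth on the horizontal and ΔSRR2–18 summit reads on the vertical axis, both logarithmic, and bars giving 95% counting error. The solid line marks equal reads and the dashed line the median ratio of all pairs (0.847). The *Ptch1* points (red) all lie below the dashed line, and the intronic *Gli3* interval (2.78) is the point farthest above it.

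Motifs were read within 100 bp of the strongest summit. AP-1 letters, bound by FOS and JUN factors, were present in 13 of the 25 deletion-only intervals (52.0%, 95% Wilson interval 33.5 to 70.0), next to 50.7% of all deletion-only intervals. They were present in 1 of the 24 parent-only intervals (4.17%, 0.739 to 20.2), next to 4.59% of all parent-only intervals, so both genotype-specific classes had shares near those over all their intervals. None of the 21 shared intervals of either list held AP-1 letters (0%, with a Wilson limit of 15.5%), next to 10.2% of all shared intervals of the parent list and 16.1% of those of the ΔSRR2–18 list. SOX letters were found in 5 of the 24 parent-only intervals (20.8%, 9.24 to 40.5), next to 15.1% of all parent-only intervals, and in 1 of the 25 deletion-only ones (4.00%, 0.710 to 19.5), next to 6.55%. The 5 were at *Ptch1* (2), *Hhip* (2) and *Sufu* (1). HOX-PBX letters occurred in 4 deletion-only intervals (16.0%, against 10.3% of all) and in 0 of the 24 parent-only ones (Wilson limit 13.8%, and 12.5% by the limit of 3 counts), against 2.16% of all. Of the 4, 3 were at *Gli3* and 1 at *Gli2*. The *Gli3* intervals 12.1 and 41.3 kb upstream also held AP-1 letters, while that 1.3 kb upstream and the *Gli2* one did not. HOX-PBX and AP-1 matches can share letters, as at 12.1 kb, so their counts are not independent. ZIC letters stood in 5 deletion-only and 1 parent-only interval (20.0% and 4.17%, against 7.65% and 12.2% of all), and CDX letters in 2 and 1 (8.0% and 4.17%, against 11.2% and 5.86%). For the 6 motifs in these 2 classes, each member share had a Wilson interval that includes the share over all intervals of its class, except that of ZIC in deletion-only intervals (8.86 to 39.1). Of those 5 ZIC intervals, 3 were at *Gli3*, and intervals of 1 gene need not be independent. No allowance was made for the number of motifs and classes looked at, so no enrichment can be read from this exception.

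**Figure D4:**
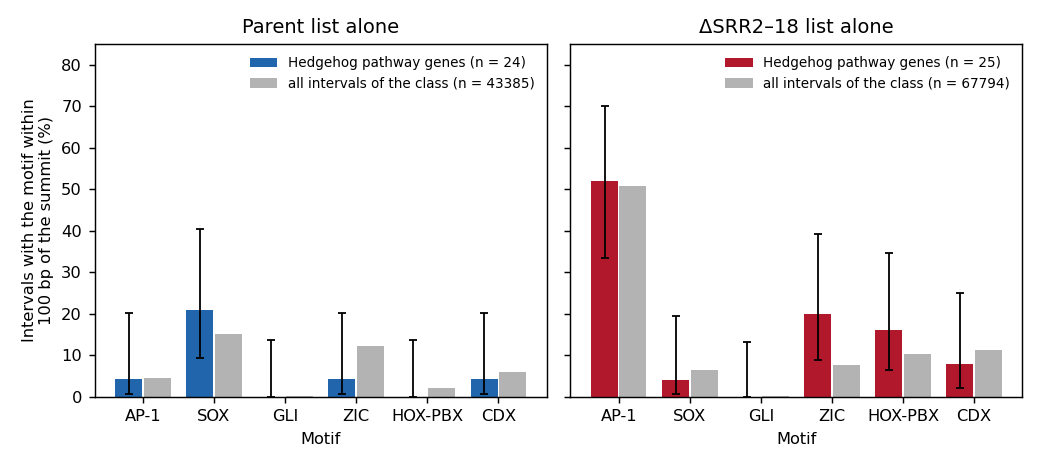
Coloured bars give the percentage of parent-only (left, n = 24) and deletion-only (right, n = 25) intervals of the 9 genes that hold each motif within 100 bp of the summit, with 95% Wilson intervals, and grey bars give the percentage over all intervals of the class. The AP-1 bars are low on the left and near 50.7% on the right, and the coloured bars follow the grey ones within their intervals for AP-1 and SOX.

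The rest of the pathway was described through 46 other genes, which held 203 parent and 222 ΔSRR2–18 intervals. Of these, 101 were parent-only and 119 deletion-only, next to 52.3% of all parent and 63.1% of all ΔSRR2–18 intervals. Except where stated, genes named by group below were picked for a difference of at least 3 intervals. How often a difference of at least 3 occurs over all genes was not counted, so their counts are descriptions only. In all, 22 of the 46 had more deletion-only than parent-only intervals and 16 had more parent-only, next to 45.3% and 27.4% of all genes with an interval. Promoter intervals were listed in both genotypes at 39 of the 46, in the ΔSRR2–18 list alone at 3 (*Shh*, *Hhat* and *Nkx2-2*) and in the parent list alone at 2 (*Dhh* and *Stk36*), which were named after their values were seen. Among the ligands and the proteins that release them (9 genes), *Hhat*, the acyltransferase of the ligands, had 11 deletion-only and 2 parent-only intervals, *Disp1*, which releases them, had 16 and 7, and *Scube2*, a secreted partner in their release, had 2 and 5. Among 8 other genes of reception, the co-receptor gene *Boc* had 8 parent-only and 0 deletion-only intervals, its relative *Cdon* had 4 and 7, and the glypican gene *Gpc3* had 0 and 8. *Boc* thus reached the parent-only excess of at least 8 seen at *Ptch1* (0.483% of genes with an interval). *Hhat*, *Disp1* and *Gpc3* reached the deletion-only excess of at least 7 seen at *Gli3* (2.27%). In the cilium group (12 genes), *Grk2*, a kinase of SMO, had 3 parent-only and 0 deletion-only intervals, and no other gene differed by 3 or more. Among the kinases and degradation factors of GLI (9 genes), *Fbxw11* had 5 deletion-only and 2 parent-only intervals and *Spop* 4 and 1. Of 8 target genes in neural progenitors, 5 had more parent-only intervals and 3 more deletion-only ones. Over all genes with an interval the shares were 27.4% and 45.3%. *Olig2*, a ventral progenitor factor, had 9 parent-only and 3 deletion-only intervals, *Mycn* 6 and 3, and the cyclin gene *Ccnd1* 4 and 1. The 3 that went the other way, by less than 3 intervals each, were *Bcl2* (2 and 4), *Nkx2-2* (1 and 2) and *Nkx6-1* (0 and 2).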

How the data were processed

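The 3 cultures of each genotype were sequenced after ATAC-seq, and the groups were taken from the sample labels. Reads were run by the authors through the ENCODE ATAC-seq pipeline, which called peaks with MACS2 in mm10 coordinates and kept those that ranked alike across the cultures by IDR, which gives the deposited IDR score of each peak. The deposited fold enrichment is a ratio of summit reads to local background, and the deposited −log10 p is the MACS2 value for the same summit. Both come from pooled reads. The conservative list of each genotype was used in every main value, and the optimal ones were tried in its place.

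Each interval took the values of its summit with the highest fold enrichment. The nearest TSS was sought among 21938 protein-coding genes of the GENCODE M21 basic annotation, and promoters lay within 1 kb of it. Intervals were shared at an overlap of at least 1 bp. Summit reads and background were solved from fold enrichment and −log10 p through the Poisson model of MACS2, which gave whole reads within 0.05 for 100% of intervals. They are pileup heights, so counting intervals understate the error. Parent reads were divided by the depth ratio of 1.98, taken from the lowest background of each list. Motifs were exact matches on either strand.

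Read recovery, overlap, nearest genes and motif search were tested on simulated data. The members, the pathway list and the motifs were chosen with earlier results of these data known. Named genes are the 9 members, with the strongest promoter interval and the strongest genotype-specific intervals of each, and other pathway genes with a difference of at least 3 intervals. Exceptions are marked where they are named. Likeness was the summed difference of the 3 class counts, for the members with the most intervals. Python 3.11.15, pandas 2.3.3, scipy 1.17.1 and pysam 0.24.0 were used.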

Additional observations from a re-analysis of the deposited data

How the results depend on the processing

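The 8 summary counts were recomputed under 21 alternatives and 2 more that were chosen after seeing their values (gene bodies at any distance, and intervals of at least 400 bp). Of 184 values, 157 stayed within 1.5 times the reported count. Settings of motifs, ranks or promoter distance cannot change the numbers of parent-only, deletion-only or shared intervals. The 157 thus include values that could not move and do not measure stability. *Ptch1* had more parent-only than deletion-only intervals, *Gli3* had more deletion-only ones, and *Evc* with *Evc2* had deletion-only ones alone, under all 23. Of the 23, 15 act on the lists, the overlap or the assignment, and the others cannot change these counts. The size of these differences was less stable. With a TSS within 10 kb, *Ptch1* had 2 parent-only and 1 deletion-only intervals and *Gli3* had 2 and 4. With the nearest TSS among all genes they had 7 and 1, and 1 and 4, and with the ΔSRR2–18 list shortened by fold enrichment 12 and 0, and 3 and 6. Merging, which is among the 15, left every interval as it was. The distance allowed mattered most. With a TSS within 10 kb, there were 8 parent-only, 9 deletion-only and 13 shared intervals, 2 pairs ranked higher in the ΔSRR2–18 list, and 3 deletion-only intervals held AP-1 and 2 parent-only ones held SOX. Within 100 kb, there were 37 parent-only and 41 deletion-only intervals and 9 such pairs. In gene bodies, there were 46 deletion-only and 33 shared intervals, 12 at promoters, 15 pairs that ranked higher and 25 deletion-only intervals with AP-1. With the nearest TSS among all genes, 7 deletion-only intervals held AP-1 and 3 parent-only ones SOX. The ΔSRR2–18 list shortened by fold enrichment left 15 deletion-only intervals and 1 with GLI, and shortened by −log10 p it left 3 pairs that ranked higher. Ranking by fold enrichment gave 9 such pairs. With parent values scaled to the ΔSRR2–18 depth and a −log10 p of at least 50, 3 parent-only intervals held SOX, as with a motif window of 50 bp. GLI counts, 2 as reported, were 0 with a window of 50 bp or outside promoters, 4 with 250 bp and 5 with the 8-letter form. Among intervals of at least 400 bp, 8 deletion-only ones held AP-1. Apart from the settings' own construction, the cause of these shifts was not tested. No paired analysis was possible because each list pools the cultures, and for the same reason no culture could be left out.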

Other observations

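*Gli3* and *Gli2* are long genes, and intervals inside them but more than 50 kb from a TSS were not assigned to them above. In *Gli3*, 16 further parent intervals and 21 further ΔSRR2–18 intervals lay there, 8 of them parent-only and 13 deletion-only, with highest fold enrichments of 19.3 and 27.3 among the genotype-specific ones. In *Gli2*, there were 11 and 18 further intervals, 5 parent-only and 12 deletion-only, with highest fold enrichments of 17.1 and 25.2. Over the whole lists, 52.3% of parent intervals were parent-only and 63.1% of the more numerous ΔSRR2–18 intervals were deletion-only. The counts of 5 of 11 and 12 of 18 at *Gli2*, and of 8 of 16 and 13 of 21 at *Gli3*, lay near these shares. The equal *Gli2* counts within 50 kb did not extend to the rest of the gene body. The part of the longer ΔSRR2–18 list in this was not tested. *Hhip* had 3 further parent and 2 further ΔSRR2–18 intervals, *Ptch1* 1 and 0, and *Sufu* 0 and 2. These values were looked at after the data were seen and carry no test.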
